A study of Mus musculus with 12 samples.

Results

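Cells that run short of amino acids, or that accumulate unfolded protein, phosphorylate the translation factor eIF2α. General translation then falls while the mRNA of the transcription factor Atf4 is translated more, and Atf4 switches on genes for the synthesis and uptake of amino acids and a set of stress regulators. The liver relies on this response during protein restriction, and it is also known for the secretion of the hormone Fgf21 by hepatocytes. The genes described here are 10 members of this response: the transcription factors and regulators Atf5, Ddit3, Nupr1, and Trib3, the enzymes Asns, Psat1, Phgdh, Pck2, and Chac1, and Fgf21. They are 10 of the 24421 gene symbols in the count files. The list was chosen by gene function and by values of these same libraries, in which Pck2 and Nupr1 were higher in tumors than in livers, so the levels of the 10 genes in tumors and livers are given as a description without a test.

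RNA of 6 liver tumors had been sequenced beside RNA of the tumor-free part of the liver of each tumor's mouse, 1 library each. In p21+/Tert mice, a copy of wild-type Tert, the catalytic subunit of telomerase, is expressed from the Cdkn1a (p21) promoter, and in p21+/TertCi mice the same promoter drives a catalytically inactive Tert. The p21+/Tert group holds 4 tumors, of which T-HCC662 and T-HCC663 had activated Ctnnb1 (β-catenin), T-HCC941 mutated Egfr, and T-HCA992 neither (HCC for hepatocellular carcinoma, HCA for adenoma), and of the 2 tumors of p21+/TertCi mice, TCi-HCC981 carried mutated Hras and TCi-HCA984 none of these drivers. Their livers are named here by their labels, p_961, p_663, p_941, and NT_992 for p21+/Tert and L981_CI and L984_CI for p21+/TertCi mice. Liver p_961 was taken as the liver of the mouse of T-HCC662 by elimination, and the other numbers match those of the tumors. For T-HCC663 the paper's histology gives an adenoma, although the paper names the tumor as HCC. All mice were over 18 months old, kept their endogenous Tert, had a C57BL/6 background, and ate a standard diet. In a part of its tumors the paper reports a loss of the endogenous Tert locus. Both alleles act wherever the p21 promoter is active rather than in hepatocytes alone. No library of a mouse without a p21-driven allele was used here, so the effect of carrying either allele was not tested, and the activated Ctnnb1 and the p21+/Tert genotype cannot be told apart within the Ctnnb1 tumors. Within a group each library comes from a different mouse, but the tumor and liver groups of a genotype share their mice.

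Between 14571716 and 26170661 reads per library were counted on genes, and levels are given in CPM, reads per 1000000 reads of a library after TMM scaling. Markers of hepatocytes (Alb, Apoa1, Ttr, Hnf4a, and Cyp2e1) were abundant in every library and summed to 28695 to 52401 CPM in livers and 19960 to 91202 CPM in tumors. Of 5 pancreatic acinar markers, Cpa1, Pnlip, and Cel were at 0 in all 12 libraries. With Ctrb1 and Cela2a, the 5 summed to 1.74 to 5.09 CPM in livers and 2.04 to 3.55 CPM in tumors. Proliferation markers (Mki67, Top2a, Cdk1, Ccnb1, and Birc5) summed to 1.55 to 23.4 CPM in livers and 6.87 to 110 CPM in tumors, and 4 of the 5 were called higher in tumors. Macrophage markers summed to 83.9 to 833 CPM in livers and 60.7 to 527 CPM in tumors, with none of 5 called, T cell markers to 0.485 to 5.92 and 1.36 to 20.1 CPM, and B cell markers to 0.485 to 32.3 and 0.511 to 12.4 CPM. Endothelial markers summed to 36.6 to 90.4 CPM in livers and 33.4 to 154 CPM in tumors, with 1 of 4 called higher in tumors. Stellate cell and fibroblast markers summed to 38.9 to 208 and 18.5 to 301 CPM, and cholangiocyte markers to 9.33 to 21.1 and 3.92 to 56.6 CPM, with none called. The part of these cells in the values below was not tested, and in bulk RNA a change in the number of cells of a type cannot be told apart from a change of RNA per cell. Tert RNA ranged from 4.69 to 26.1 CPM, which does not check the genotype labels because the active and the inactive transcript carry the same symbol.

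The promoters of the 10 genes were searched for the C/EBP-ATF response element (CARE), the composite motif through which Atf4 and its partners are known to act, written as TGATGNAAN and searched on both strands. The windows below hold the match in capitals with 10 bases on either side, 5′ to 3′ on the strand of the gene, from RefSeq promoters on GRCm38.p6 that reach from 250 bases before to 50 bases after the annotated start. They are shown because Atf4-linked genes were picked for the list and this is the element through which that link is known to run.
Asns: cccagccacaTGATGAAACttcccgcacg
Trib3: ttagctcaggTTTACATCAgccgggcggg
Chac1: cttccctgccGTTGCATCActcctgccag
Fgf21: agacccccccATTGCATCAtccgtccagg
Nupr1: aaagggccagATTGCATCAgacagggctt
Pck2: agccttcaaaGTTACATCAgtatcttaca
These windows lie at chr6:7693214-7693242, chr2:152344029-152344057, chr2:119351038-119351066, chr7:45615612-45615640, chr7:126625563-126625591, and chr14:55540152-55540180, in the order listed. The match was on the strand of the gene in Asns and on the opposite strand in the other 5, where the letters read as the reverse complement. It began 23, 194, 140, 111, and 104 bases before the RefSeq start in Asns, Chac1, Fgf21, Nupr1, and Pck2, and at base 14 after it in Trib3. RefSeq starts differ from the ends of the GENCODE genes given below, so that the Trib3 match lies upstream of the GENCODE gene and the Asns and Nupr1 matches inside theirs. In all, 6 of the 10 genes held a match, against 1215 of 27025 genes (4.5%) and 1299 of 32851 promoters (3.95%). Since the genes were chosen as linked to Atf4, that share follows in part from the choice and nothing is read from it. A match is a string of letters and not a measured site.

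The RNA of Atf4 itself, the factor at the head of the response, differed little between tissues. It ranged from 158 to 210 CPM in the 6 livers (median 175) and from 134 to 248 CPM in the 6 tumors (median 205), and the groups overlapped (log2 fold change 0.12, SE 0.17, edgeR adjusted p = 0.715). The activity of Atf4 is set largely at translation, which RNA levels do not measure.

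Nupr1, which encodes a small nuclear stress protein (chr7:126623249-126630861, minus strand), was the one regulator of the 4 whose tumors and livers did not overlap. In livers it was at 1.62, 4.06, 2.12, and 2.63 CPM in the p21+/Tert livers p_961, p_663, p_941, and NT_992 and at 3.91 and 3.10 CPM in the p21+/TertCi livers L981_CI and L984_CI. The matched tumors, from T-HCC662 to T-HCA992 and then TCi-HCC981 and TCi-HCA984, were at 86.5, 54.6, 11.5, 16.0, 46.0, and 9.54 CPM. The lowest tumor, TCi-HCA984, lay above the highest liver, and the tumor exceeded the liver of its own mouse by 53.2-fold for T-HCC662, by 13.4-fold for T-HCC663, and by 3.08-fold for TCi-HCA984. Livers differed among themselves by 2.5-fold and tumors by 9.06-fold, with T-HCC662, T-HCC663, and TCi-HCC981 on top.

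Trib3, a pseudokinase that restrains Atf4 and other factors (chr2:152337422-152344032, minus strand), ranged from 7.08 to 25.9 CPM in livers (median 16.0) and from 24.6 to 83.3 CPM in tumors (median 51.1). Only T-HCC663, at 24.6 CPM, fell within the range of the livers, and its own liver was the highest of the 6. The Egfr and Hras tumors, T-HCC941 and TCi-HCC981, held the top values of 76.2 and 83.3 CPM.

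Ddit3 encodes CHOP, a transcription factor of prolonged stress (chr10:127290829-127293753, plus strand). Ddit3 was at 14.3 to 34.5 CPM in livers (median 22.5) and at 19.0 to 65.3 CPM in tumors (median 44.6), and it was higher in the tumor than in the own liver in 5 of 6 mice. The exception was TCi-HCA984, where it was 19.0 CPM against 34.5 CPM in its liver, the highest liver value. Exons of Ddit3 overlap those of Mars and Gm4189, and the strand setting of the counting is not given in the sources used here, so reads of these genes may be shared.

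Atf5, a factor of the same family as Atf4 that is also linked to mitochondrial stress (chr7:44812256-44816658, minus strand), was the most abundant of the 10. It spanned 380 to 1871 CPM in livers (median 533) and 391 to 1148 CPM in tumors (median 803), with every tumor inside the range of the livers. The top liver, L984_CI, was 2.24-fold above the next. Its exons overlap those of Il4i1 and Nup62, with the same limit on the assignment of reads.

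To set the genes side by side, levels were divided by the length of exon merged over all annotated transcripts of a gene. This length ran from 951 bases for Fgf21 to 7806 for Pck2. It can exceed the length of the transcripts present, so the order of the genes is approximate. Per kilobase, the median liver held 267 CPM per kb of Atf5, 13.1 of Ddit3, 7.51 of Trib3, 4.65 of Chac1, and 4.39 of Asns, with each of the other 5 below 2 CPM per kb and Psat1 lowest at 0.114. In the median tumor Atf5 stood at 403 CPM per kb, followed by Fgf21 at 34.5, Ddit3 at 26.1, Trib3 at 24.0, and Nupr1 at 12.3, and Phgdh was lowest at 1.58. On this scale Fgf21 moved from the sixth place in livers to the second in tumors.

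Among the enzymes, Pck2 stood apart from the livers in every tumor. It encodes the mitochondrial form of phosphoenolpyruvate carboxykinase (chr14:55540266-55551242, plus strand). The livers p_961, p_663, p_941, NT_992, L981_CI, and L984_CI held 3.96, 3.80, 4.55, 5.21, 7.94, and 7.37 CPM. The tumors of these mice, in the same order, held 20.8, 37.7, 23.7, 21.1, 16.1, and 23.8 CPM. T-HCC663 was highest and TCi-HCC981 lowest, and the ratio to the own liver ran from 2.02 for TCi-HCC981 to 9.91 for T-HCC663. The paper describes chromosome 14, which carries Pck2, as extensively rearranged in T-HCC663. The part of copy number in this value was not tested. Tumors differed among themselves by only 2.34-fold, the narrowest spread of the 10 genes in tumors. Its exons overlap those of Gm10876. Pck1, the cytosolic form and a key enzyme of gluconeogenesis, is not a member and went the other way, from 1494 to 3788 CPM in livers to 207 to 374 CPM in 5 tumors and 2264 CPM in TCi-HCA984 (log2 fold change -2.08, SE 0.61, edgeR adjusted p = 0.0463). Its call was lost in 10 of 12 fits that left out 1 library, with adjusted p from 0.000809 to 0.100, and its fold change was lowest without TCi-HCA984, at -3.17.

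Nupr1 and Pck2 were the 2 of 10 members whose tumors did not overlap the livers, both with the tumors higher. Of all 13822 genes tested, 2.93% had tumors above every liver and 2.18% had tumors below every liver. These 2 genes are those named when the list was chosen, so nothing is read from that count. The next in line were Trib3, Fgf21, and Psat1, each with 5 of 6 tumors above every liver, and then Ddit3 with 4, Phgdh with 3, Asns with 2, and Atf5 and Chac1 with 0.

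**Figure D1:**
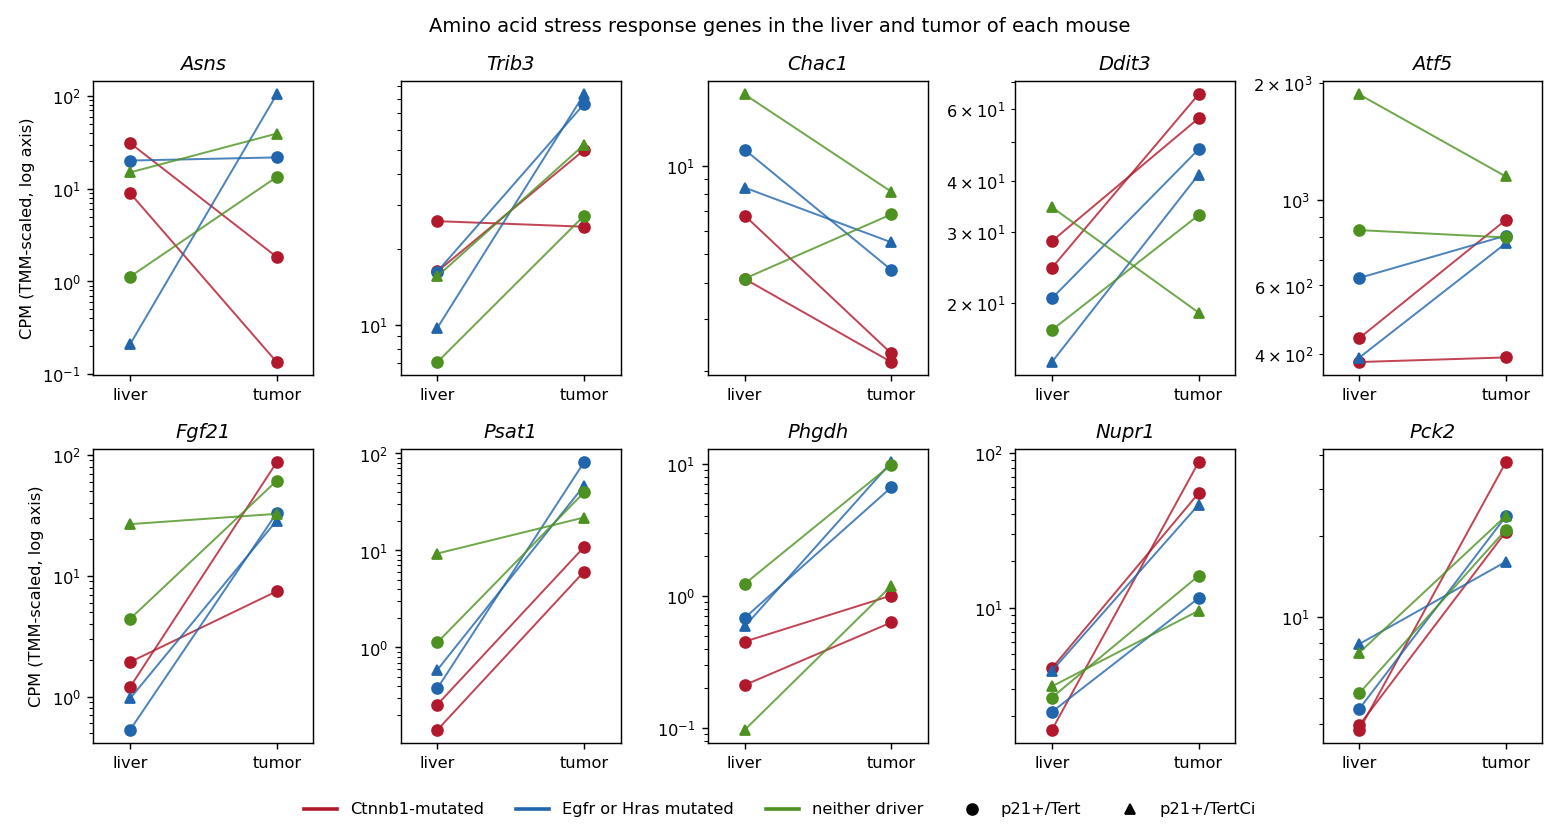
TMM-scaled CPM on a log axis for the 10 genes, with a line joining the liver and the tumor of each mouse, colored by the driver of the tumor and with circles for p21+/Tert and triangles for p21+/TertCi mice. Nupr1 and Pck2 lines all climb without overlap of the 6 livers and 6 tumors, whereas the Asns lines of the Ctnnb1-mutated tumors drop and the others climb.

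Psat1 and Phgdh encode consecutive enzymes of serine synthesis from a glycolytic intermediate, and both were close to the detection floor in livers. Psat1 (chr19:15904678-15947337, minus strand) had 0.141, 0.258, 0.379, 1.13, 0.588, and 9.31 CPM in livers p_961, p_663, p_941, NT_992, L981_CI, and L984_CI. The tumors of these mice, in the same order, had 6.04, 10.8, 81.0, 39.6, 46.4, and 21.9 CPM. Each tumor exceeded its own liver, and L984_CI was the only liver to reach into the range of the tumors. The liver values of the p21+/Tert mice rest on 2 to 21 reads, so the ratios of their tumors to them are imprecise.

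Phgdh (chr3:98313170-98339990, minus strand) had 0.0969 to 1.23 CPM in livers, from 2 to 23 reads a library. Its tumors split, with 6.64, 9.85, and 10.3 CPM in T-HCC941, T-HCA992, and TCi-HCC981 and 0.631, 1.01, and 1.19 CPM in T-HCC662, T-HCC663, and TCi-HCA984. The latter 3 lay within the range of the livers, although each was above its own liver. The annotation holds 12 other genes with stretches nearly identical to Phgdh, and how reads with several alignments were treated is not given in the sources used here, so its level is uncertain.

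Asns, asparagine synthetase (chr6:7675169-7693254, minus strand), was the most variable member. Livers p_961, p_663, p_941, NT_992, L981_CI, and L984_CI had 8.97, 31.1, 20.2, 1.13, 0.21, and 15.0 CPM, a 148-fold spread. The tumors, in the same order of mice, had 0.135, 1.84, 21.8, 13.4, 104.3, and 39.4 CPM, a 772-fold spread. T-HCC662 held 3 Asns reads against 127 in its liver, and T-HCC663 held 42 against 483. TCi-HCC981 held 2031 reads against 5 in its liver, the reverse order. The tumor was lower than its own liver in both Ctnnb1 mice and higher in the other 4, by a factor of only 1.08 for T-HCC941 and by 2.62 for TCi-HCA984.

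Chac1, which breaks down glutathione and is a known target of Atf4 and CHOP (chr2:119351229-119354381, plus strand), was the only member with a lower median in tumors, 4.96 CPM (range 2.15 to 8.18), than in livers, 7.61 CPM (range 4.13 to 17.5). It was lower in the tumor than in the own liver in 5 of 6 mice, T-HCA992 being the exception. The lowest values, 2.15 and 2.30 CPM, were those of T-HCC663 and T-HCC662.

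Fgf21, a hormone that hepatocytes secrete under nutrient stress (chr7:45613886-45615490, minus strand), had 1.20, 1.93, 0.531, 4.40, 0.966, and 26.8 CPM in livers p_961, p_663, p_941, NT_992, L981_CI, and L984_CI. Its tumors, in the same order of mice, had 86.8, 7.45, 33.0, 61.1, 28.7, and 32.5 CPM. Every tumor exceeded its own liver, but the Ctnnb1 tumors were at the extremes, with T-HCC662 highest and T-HCC663 lowest. TCi-HCA984 was only 1.22-fold above its liver.

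Set against the liver of the same mouse on a log2(CPM + 1) scale, Psat1, Phgdh, Nupr1, Pck2, and Fgf21 were higher in the tumor in 6 of 6 mice, Trib3 and Ddit3 in 5, Asns and Atf5 in 4, and Chac1 in 1. TCi-HCC981 exceeded every liver for 8 of the 10 genes, T-HCC941 for 7, T-HCA992 and TCi-HCA984 for 6, T-HCC662 for 5, and T-HCC663 for 4. No tumor lay above every liver for Chac1 or Atf5. The share of all genes for which a given tumor exceeded every liver was not computed. The list was also chosen in part by tumor values, so nothing is read from these counts.

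**Figure D2:**
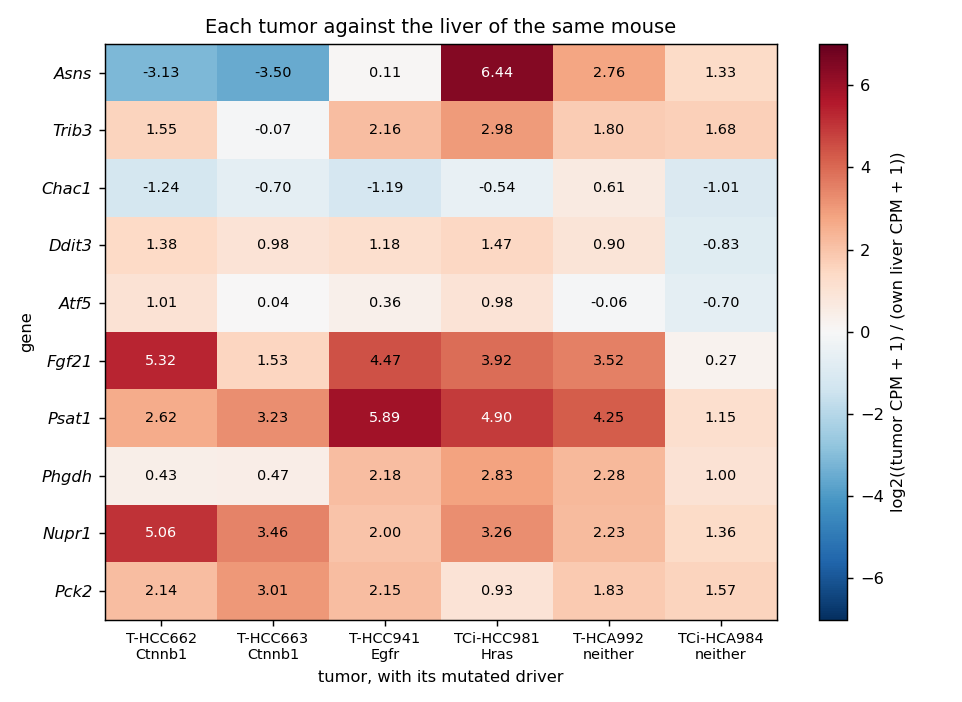
Each cell gives log2 of tumor CPM + 1 over liver CPM + 1 of the same mouse for 10 genes (rows) and 6 tumors (columns), red where the tumor was higher and blue where it was lower. Asns runs from -3.50 in T-HCC663 to 6.44 in TCi-HCC981, Pck2 stays between 0.93 and 3.01, and TCi-HCA984 has the palest column for Fgf21, Psat1, and Nupr1.

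Among the livers, L984_CI was the highest of the 6 for 5 members, Chac1, Ddit3, Atf5, Fgf21, and Psat1, and the lowest for Phgdh. Against the median of the other 5 livers it held 22.3 times the Fgf21, 24.5 times the Psat1, and 4.27 times the Atf5, but 0.957 times the Trib3 and 1.18 times the Nupr1. It was also the highest liver for 18 of 19 genes of the chaperone arm of the unfolded protein response, such as the chaperone Hspa5, at 2031 CPM against 471 to 1261 CPM in the other livers. By the same count, p_663 was the highest liver for 3 members. The share of all genes for which L984_CI was the highest liver was not computed, so nothing is read from these counts. The hepatocyte markers of L984_CI summed to 39881 CPM, inside the range of the other livers. Its macrophage markers, at 83.9 CPM, T cell and B cell markers, at 0.485 CPM each, and proliferation markers, at 1.55 CPM, were the lowest of the livers, as were pancreatic acinar markers at 1.74 CPM, and the part of these in its values was not tested. Values that rest on this liver are given below with and without it.

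The comparison of p21+/Tert with p21+/TertCi livers asks whether catalytic activity of Tert went with a different level of the response in non-tumoral tissue. The quasi-likelihood test of edgeR, at an adjusted p of 0.05, called no member and 0% of all 15182 genes (756 genes at unadjusted p under 0.05, and 24 higher and 18 lower genes called by DESeq2, no member among them). Fgf21 (log2 fold change -2.78, SE 1.08), Psat1 (-3.33, SE 1.16), and Pck2 (-0.82, SE 0.29) were under 0.05 before adjustment, all lower in p21+/Tert livers and all with an adjusted p of 0.930. Without L984_CI, which leaves L981_CI as the only p21+/TertCi liver with a spread assumed from the other groups, Fgf21 turned to 1.07 (SE 1.26) and Psat1 shrank to -0.25 (SE 1.43). Pck2 was -0.86 (SE 0.37) against that single liver, and its levels of 3.80 to 5.21 CPM in the 4 p21+/Tert livers lay below the 7.37 and 7.94 CPM of both p21+/TertCi livers. The share of all genes that separated these livers in this way was not computed, so nothing is read from it. Atf5 also changed sign without L984_CI, from -1.01 (SE 0.56) to 0.54 (SE 0.58).

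The same comparison among tumors is confounded with the driver, because both Ctnnb1 tumors were p21+/Tert. Again no member was called, nor was any other gene (0% of 15182, with 1752 genes at unadjusted p under 0.05, and 254 higher and 110 lower genes called by DESeq2, no member among them). Asns had the smallest p, with 9.30 CPM ± 10.2 (SD, n = 4) in p21+/Tert and 71.9 CPM ± 45.9 (SD, n = 2) in p21+/TertCi tumors (log2 fold change -2.96, SE 1.51, adjusted p = 0.471). With T-HCC662 and T-HCC663 left out, so that each genotype had an Egfr or Hras tumor and a tumor with neither, the Asns difference was -2.04 (SE 1.52, adjusted p = 0.770). Nupr1 changed sign between these fits, from 0.59 (SE 0.79) to -1.02 (SE 0.60), as did Psat1, from -0.01 (SE 1.06) to 0.80 (SE 0.94), and Phgdh, from -0.34 (SE 1.12) to 0.52 (SE 0.96).

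**Figure D3:**
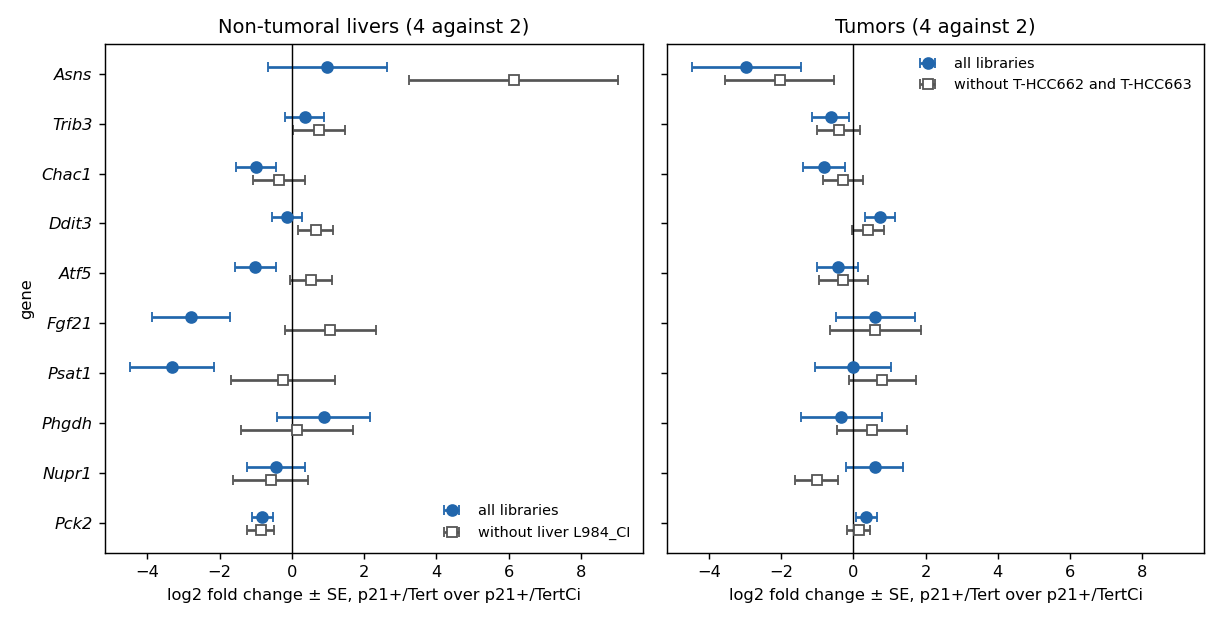
Log2 fold change ± SE of p21+/Tert over p21+/TertCi for the 10 genes in livers (left) and tumors (right). Filled circles use all 12 libraries, open squares leave out liver L984_CI or the Ctnnb1 tumors, and no gene was past the threshold. The Fgf21 and Psat1 circles at -2.78 and -3.33 in livers move to 1.07 and -0.25 without that liver, and the open Asns square in livers compares against a single library with 5 reads.

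The interaction term, which asks whether the difference between tumor and liver depends on the genotype, also gave no call for a member or for any gene (0% of 15182, with 556 genes at unadjusted p under 0.05, and 1 higher and 5 lower genes called by DESeq2, no member among them). Pck2 had the smallest p of the members, with a larger difference in p21+/Tert mice by 1.17 on the log2 scale (SE 0.41, unadjusted p = 0.0161, adjusted p = 1). Its mean was 4.38 CPM in livers and 25.8 CPM in tumors of p21+/Tert mice (n = 4) and 7.65 and 19.9 CPM in those of p21+/TertCi mice (n = 2). For the other 9 members the SE of the interaction lay between 0.58 and 2.32, so differences of that size between the genotypes could not be resolved.

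The comparison by driver asks whether the response differed between tumors with activated β-catenin and the rest. The Ctnnb1 tumors T-HCC662 and T-HCC663 had more Nupr1, at 86.5 and 54.6 CPM, than the other 4 tumors, at 9.54 to 46.0 CPM (log2 fold change 1.87, SE 0.47, edgeR adjusted p = 0.0270). Nupr1 was the only one of the 10 members called, where 6.76% of all 15182 genes were called higher and 5.72% lower. The other 9 members were not called. The call was lost without T-HCC662, without T-HCC663, and without TCi-HCA984, with adjusted p between 0.00708 and 0.187 over the 12 fits that left out 1 library. The fold change lay between 1.49 and 2.53 in these fits.

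The largest difference was that of Asns, 0.988 CPM ± 1.21 (SD, n = 2) in Ctnnb1 tumors and 44.7 CPM ± 41.2 (SD, n = 4) in the others. Its log2 fold change was -5.37 with an SE of 1.80, and edgeR's adjusted p of 0.0704 missed the threshold. DESeq2 called it (adjusted p = 0.00401), and so did edgeR without L981_CI (adjusted p = 0.0360). Phgdh (-3.06, SE 0.98, adjusted p = 0.0608), Psat1 (-2.40, SE 1.30, adjusted p = 0.235), and Chac1 (-1.47, SE 0.58, adjusted p = 0.114) had lower values in the Ctnnb1 tumors, and DESeq2 called Phgdh (adjusted p = 0.00533) and Chac1 (adjusted p = 0.0489) and gave no adjusted p for Psat1 and Fgf21. Ddit3 was higher at 65.3 and 57.1 CPM against 19.0 to 47.8 CPM (0.84, SE 0.33, adjusted p = 0.111). Without L984_CI, Psat1 and Phgdh passed in edgeR as well, with adjusted p of 0.0196 and 0.0433, and without TCi-HCA984 Phgdh passed with 0.0362.

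In all, 6 of the 10 members did not overlap between the classes, with Nupr1 and Ddit3 higher and Asns, Psat1, Phgdh, and Chac1 lower in both Ctnnb1 tumors. With 2 tumors against 4 this is common, and 18.5% of all genes tested lay higher and 19% lower without overlap. Trib3, Atf5, Fgf21, and Pck2 overlapped. For Fgf21 the Ctnnb1 tumors held both extremes, and its fold change of 0.31 (SE 1.29) turned to -2.37 without T-HCC662.

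With the mouse as a replicate block, an alternative added after the data had been seen, the comparison becomes that of each tumor with its own liver, and no member was called. Nupr1 stayed at 2.08 (SE 0.64, adjusted p = 0.140) and Asns moved to -7.59 (SE 2.24, adjusted p = 0.130). Psat1 turned to 0.43 (SE 1.39), and without the mouse of TCi-HCA984 and L984_CI it was -0.63 (SE 0.70). In that fit Nupr1 was 1.84 (SE 0.67, adjusted p = 0.258), Asns was -8.23 (SE 2.43, adjusted p = 0.173), and again no member was called. Over all genes, the block with all mice called 219 higher and 222 lower, in place of 1026 and 869, and that without this mouse 133 and 119. The Ctnnb1 tumors also had lower summed levels of several cell type markers. Stellate cell and fibroblast markers summed to 18.5 and 58.1 CPM against 114 to 301 CPM in the other tumors (none of 5 called by edgeR), and endothelial markers to 33.4 and 76.5 CPM against 79.7 to 154 CPM (2 of 4 called lower). Cholangiocyte markers summed to 3.92 and 4.91 CPM against 23.7 to 56.6 CPM (1 of 4 called lower), and hepatocyte markers to 19960 and 37085 CPM against 61479 to 91202 CPM (1 of 5 called lower and 1 higher). Their part in these differences was not tested.

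**Figure D4:**
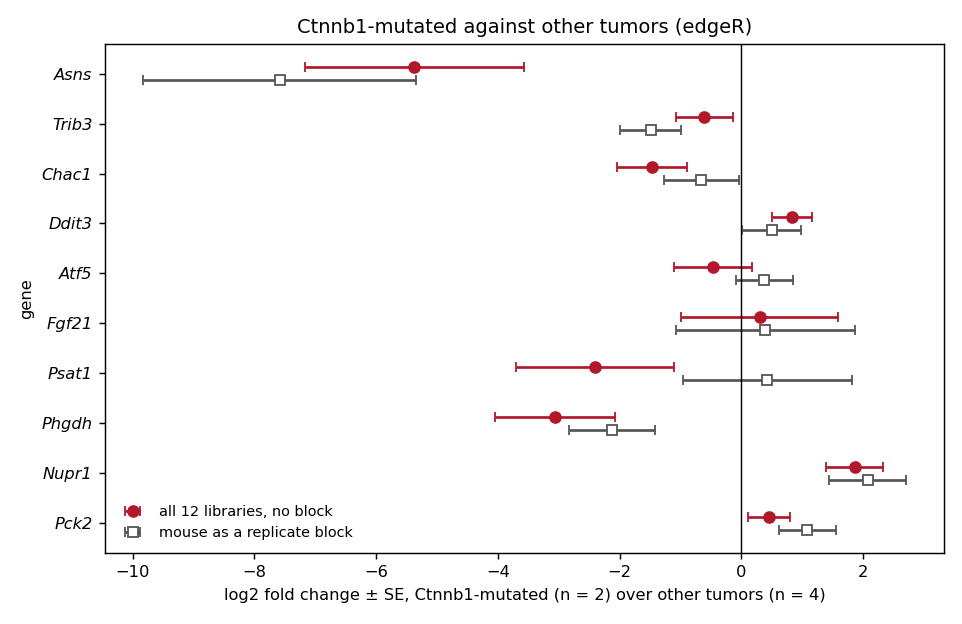
Log2 fold change ± SE of the Ctnnb1-mutated (n = 2) over the other tumors (n = 4) for the 10 genes, from all 12 libraries without a block (filled circles) and with the mouse as a replicate block, each tumor set against its own liver (open squares). Asns lies at -5.37 and -7.59, Nupr1 at 1.87 and 2.08, and Psat1 changes sign.

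Between the Egfr or Hras tumors (T-HCC941 and TCi-HCC981) and the tumors with neither driver (T-HCA992 and TCi-HCA984), no member was called and no other gene was (0% of 15182, with 1331 genes at unadjusted p under 0.05, and 53 higher and 52 lower genes called by DESeq2, no member among them). Trib3 was at 76.2 and 83.3 CPM in the Egfr and Hras tumors and at 27.2 and 52.4 CPM in the others (log2 fold change 0.97, SE 0.53, adjusted p = 0.609). Ddit3 was at 47.8 and 41.5 CPM against 32.9 and 19.0 CPM (0.75, SE 0.39, adjusted p = 0.593). Nupr1, with the smallest p of the members, was at 11.5 and 46.0 CPM against 16.0 and 9.54 CPM, so that its classes overlapped (1.15, SE 0.57, adjusted p = 0.589). With 2 tumors a class, the SE of the members ran from 0.39 to 1.52 on the log2 scale. The paper's histology lists both Egfr or Hras tumors as carcinomas and both others as adenomas. Driver and histology therefore cannot be told apart in this comparison. The paper also describes an expression signature of MAPK pathway activation in T-HCC941, in TCi-HCC981, and in T-HCA992. The classes here follow mutations and not that signature.

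Beyond the 10 members, 84 genes of the pathway were followed in 7 lists written from textbook knowledge, with earlier results of these data known. Of 83 tested, 13 rose and 2 fell in tumors against livers, where 6.77% of all 13822 genes were called higher and 3.91% lower. The median log2 fold change of the 83 genes was 0.08, beside 0.01 over all genes. The count of 15 dropped to 8 without p_961 and to 9 without p_941, and was 21 in DESeq2 and 17 with the mouse as a replicate block. Within p21+/Tert mice, 10 of 84 genes rose and 2 fell (4.2% and 2.3% of all genes), with a total as low as 4 when 1 library was left out, and within p21+/TertCi mice edgeR called none (0% of all genes, with 1618 genes at unadjusted p under 0.05) and DESeq2 called 4 higher and 1 lower. The interaction term called none of the 84, in edgeR or in DESeq2.

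Of the 14 tested targets of Atf4 outside the members, 3 rose and none fell. Slc7a11, the cystine-glutamate exchanger, was at 0 to 0.378 CPM in livers and at 4.91, 10.7, 71.6, 9.28, 131, and 53.2 CPM in their tumors in the order of mice used above (edgeR adjusted p = 0.00122). Slc1a4, a carrier of neutral amino acids including serine, rose from 4.45 to 15.5 CPM in livers to 41.3 to 112 CPM in tumors (log2 fold change 2.68, SE 0.32, adjusted p = 0.000701). The peptide hormone gene Adm2 rose from at most 0.145 CPM to between 0.526 and 9.50 CPM (adjusted p = 0.00212).

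Of 7 genes of serine, one-carbon, and proline synthesis, 4 rose and none fell, around a median of 2.05 on the log2 scale. The mitochondrial folate enzymes Mthfd2 (2.05, SE 0.40, adjusted p = 0.00676), Mthfd1l (2.44, SE 0.42, adjusted p = 0.00398), and Aldh1l2 (3.11, SE 0.83, adjusted p = 0.0318) rose together with Aldh18a1, which starts proline synthesis (2.23, SE 0.54, adjusted p = 0.0211). The call for Aldh1l2 held in 7 of 12 fits that left out 1 library, and that for Aldh18a1 in 11. Shmt2, another mitochondrial folate enzyme, was not called (-0.56, SE 0.24, adjusted p = 0.161).

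Among 11 eIF2α kinases, factors, and phosphatase subunits, Atf3, a transcription factor induced by Atf4, rose from 0.565 to 5.71 CPM in livers to 16.1 to 31.0 CPM in tumors (2.95, SE 0.43, adjusted p = 0.00158). Eif2s1, which encodes eIF2α, rose slightly (0.43, SE 0.13, adjusted p = 0.0456, called in 3 of 12 fits that left out 1 library), and Eif2ak1, the kinase that senses heme, fell (-0.47, SE 0.12, adjusted p = 0.0252, called in 9 of 12 such fits, and with an adjusted p of 0.0699 in the replicate block without the mouse of T-HCC662). Eif2ak4, the kinase that senses uncharged tRNA, was not called (0.72, SE 0.23, adjusted p = 0.0640), nor was Eif2ak3, the kinase of the endoplasmic reticulum (0.47, SE 0.29, adjusted p = 0.332). Of 20 cytosolic aminoacyl-tRNA synthetases, Vars (0.64, SE 0.14, adjusted p = 0.0105), Gars (0.61, SE 0.17, adjusted p = 0.0365), and Cars (0.82, SE 0.24, adjusted p = 0.0483) rose and none fell, around a median of 0.08. The call held in 12 of 12 fits without 1 library for Vars, in 6 for Gars, and in 2 for Cars. With the mouse as a replicate block, Vars alone of the 20 was called (adjusted p = 0.0249), with 0.0659 for Gars and 0.0691 for Cars.

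None of 19 genes of the chaperone arm of the unfolded protein response was called in tumors by edgeR (median -0.16), and DESeq2 called 1 of them lower. None of 5 mitochondrial chaperones and proteases was called by either tool with all libraries and no block (median -0.08). Without T-HCC662, edgeR called 1 of the 5 lower. With the mouse as a replicate block, edgeR called the protease gene Clpp lower (-0.62, SE 0.15, adjusted p = 0.0283). Among 7 relatives and partners of the members, Trib2, a pseudokinase related to Trib3, rose (2.36, SE 0.48, adjusted p = 0.00866), and only Pck1 fell.

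In the Ctnnb1 against the other tumors, 5 of the 84 genes were higher and 8 lower, against 6.76% and 5.72% of all genes, shares too near each other for a result about the lists, with a median of -0.35 beside 0.00 over all genes. The chaperone arm accounted for 4 of the lower genes: Ern1, a sensor of unfolded protein (-2.45, SE 0.65, adjusted p = 0.0331), Xbp1, the factor it activates (-1.26, SE 0.34, adjusted p = 0.0351), Pdia6 (-1.71, SE 0.47, adjusted p = 0.0373), and Edem1 (-1.36, SE 0.30, adjusted p = 0.0159). Each of the 19 genes of that list had a negative fold change, with a median of -1.26, and DESeq2 called 10. Without T-HCC662 or without T-HCC663, edgeR called none of the 19, and without L984_CI it called 11. It called 1 without TCi-HCC981, 2 without T-HCA992, and 2 without p_663. With the mouse as a replicate block it called 1.

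The remaining lower genes were Slc7a11 (-2.86, SE 0.84, adjusted p = 0.0456), Sesn2, a sensor of leucine (-1.56, SE 0.43, adjusted p = 0.0362), Psph, the last enzyme of serine synthesis (-1.65, SE 0.36, adjusted p = 0.0163), and Eprs (-0.61, SE 0.18, adjusted p = 0.0471). Psph stood at 6.89 and 3.29 CPM in the Ctnnb1 tumors, close to the livers at 4.32 to 6.32 CPM, and at 10.2 to 22.2 CPM in the other tumors. The higher genes were Vldlr, a lipoprotein receptor (4.32, SE 0.82, adjusted p = 0.00861), Slc7a5, a carrier of large neutral amino acids (1.74, SE 0.52, adjusted p = 0.0485), the synthetase gene Aars (1.49, SE 0.22, adjusted p = 0.00256), the mitochondrial protease gene Clpp (0.83, SE 0.18, adjusted p = 0.0169), and Trib2 (1.69, SE 0.48, adjusted p = 0.0407). Aars was at 419 and 304 CPM in the Ctnnb1 tumors, near the livers at 233 to 311 CPM, and at 101 to 171 CPM in the other tumors. Of the 13 genes named here, Aars was called in each of the 12 fits that left out 1 library and the others in 1 to 11. The 5 higher and 8 lower calls fell to 1 and 1 without T-HCC662, to 3 and 0 without T-HCC663, to 2 and 4 without T-HCA992, to 3 and 2 without TCi-HCC981, and to 3 and 3 without p_663. They were 5 and 15 without L984_CI, and 1 and 1 with the mouse as a replicate block.

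**Figure D5:**
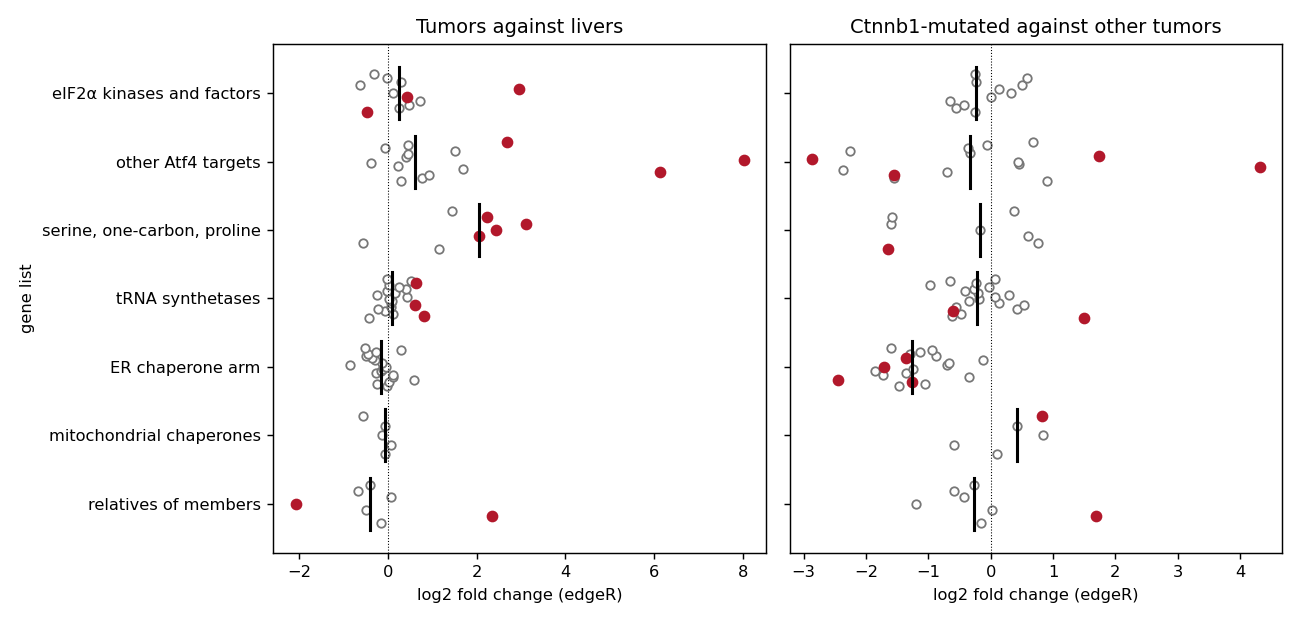
Log2 fold changes of the pathway genes that were tested, by list, in tumors against livers (left) and in Ctnnb1-mutated against other tumors (right). Each point is a gene, red where it was called by edgeR at an adjusted p of 0.05, the largest values on the left, Slc7a11 and Adm2, are fitted against livers at or near 0, and the bars are list medians, at 2.05 for serine, one-carbon, and proline synthesis on the left and at -1.26 for the chaperone arm on the right.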

How the data were processed

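The authors made paired-end libraries of poly(A) RNA, discarded reads of low quality, and mapped the remainder with Subread-align to mm10 and mCherry. The deposited values are raw counts per gene from featureCounts 1.6.4. The annotation, the sequencing run of a sample, for which the authors corrected in DESeq2, and the counting of reads with several alignments are not given in the sources used here. The 10 members and all lists were chosen with earlier results of these data known, and driver classes follow the mutations the study found. Counts were TMM-scaled, filtered with filterByExpr, and tested with the quasi-likelihood F test of edgeR 4.0.16 (R 4.3.3), with Benjamini-Hochberg adjustment over all genes at 0.05. Scripts were tested on simulated counts. The SE is the fold change over the square root of F. All 10 members passed the filter. Tumors against livers used 2 groups, and the genotype and driver comparisons 4 groups, of all 12 libraries. List genes were named if called in tumors against livers or Ctnnb1 against other tumors, up to 4 of smallest p per list and direction, Atf4 always. Eif2ak3, Eif2ak4, Shmt2, and Hspa5 were named after their values were seen. Positions are from GENCODE on GRCm38, and near-identical genes are those that minimap2 2.31 aligned over at least 150 bases at 95% identity. Alternatives were DESeq2 1.42.0, RLE factors, every gene with at least 1 count, each library left out, only the libraries compared, driver-balanced tumors, and the mouse as a replicate block. Tumor and liver with 1 number come from 1 mouse. Their deviations from the group means correlated with r of 0.00538 to 0.542 over 13822 genes (median 0.298, other mice -0.065). Both p21+/TertCi pairs have the value 0.542 by construction, since their groups hold 2 libraries centered on their mean. Such centering also lowers the values of other mice, so these values are a weak check of the pairing.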

Additional observations from a re-analysis of the deposited data

Results flagged for a closer look

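In 40 sets of log2(CPM + 1) values (each member in all livers, in all tumors, and in the p21+/Tert libraries of each tissue), 3 had a library far from the others by Dixon's criterion, where chance alone marks about 1 in 20. Psat1 in liver L984_CI, at 9.31 CPM, lay above the other 5 livers, whose highest was 1.13 CPM. Atf5 in T-HCC663, at 391 CPM, lay below the other tumors, both among the 4 p21+/Tert tumors and among all 6, the next lowest being 771 CPM. The liver of that mouse was also the lowest of the livers for Atf5, at 380 CPM.

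Asns was lower in tumor than in liver for T-HCC662 and T-HCC663 and higher in tumor for the other 4. The mean of log2((tumor CPM + 1)/(liver CPM + 1)) differed by -5.98 between these sets of mice. This contrast of directions was not tested by itself. T-HCC941 was only 1.08-fold above its liver, the liver of TCi-HCC981 held 5 Asns reads, and the livers spread over 148-fold. In the fit with the mouse as a replicate block, the corresponding log2 fold change for Asns was -7.59 with an SE of 2.24 and an adjusted p of 0.130 in edgeR.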

How the results depend on the processing

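With 2 to 4 libraries a group and Asns, Psat1, and Phgdh at few reads in some libraries, single libraries could decide a value. Of 1364 alternative values for 80 results on single genes, 1166 kept direction and side of the threshold, 155 lost a call, 8 gained one, and 35 changed sign. Where no value shows a cause, the cause was not tested. Leaving out 1 library in turn, the called pathway genes numbered 8 to 16 in tumors against livers and 4 to 10 within p21+/Tert mice, and called members numbered 0 to 3 in Ctnnb1 against other tumors. They were 0 throughout in the genotype, interaction, and Egfr or Hras comparisons, as were pathway genes within p21+/TertCi mice. DESeq2 called 5 pathway genes within p21+/TertCi mice, and 4 members in Ctnnb1 against other tumors, and 1453 and 954 genes in tumors against livers (edgeR 936 and 540) and 1460 and 1651 in Ctnnb1 against other tumors. The fit to tumors alone called 432 and 407 genes there, Psat1 among them and Nupr1 not (adjusted p = 0.0806).

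With the mouse as a replicate block, 1194 and 1008 genes were called in tumors against livers, 219 and 222 in Ctnnb1 against other tumors, and 0 members there, in place of 1. That block turned Atf5 to 0.38 and Psat1 to 0.43 in Ctnnb1 against other tumors, and Atf5 to 1.02 and Fgf21 to 3.29 in Egfr or Hras against neither. Without the mouse of TCi-HCA984, an alternative also chosen after seeing the data, the block called 0 members in Ctnnb1 against other tumors, with Atf5 at 0.23 and Fgf21 at -0.51. The block changed no call of a member in the interaction or in Egfr or Hras against neither.

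Log2 fold changes that crossed 0 when 1 library was left out had the following ranges. For p21+/Tert against p21+/TertCi livers they were -0.64 to 0.66 for Ddit3, -1.75 to 0.54 for Atf5, and -3.74 to 1.07 for Fgf21, each highest without L984_CI. For tumors they were -0.86 to 0.61 for Psat1, -1.17 to 1.89 for Phgdh, and -0.13 to 2.11 for Nupr1. Driver-balanced tumors gave 0.80, 0.52, and -1.02 for these 3, and testing every gene with at least 1 count gave 0.0083 for Psat1. For the interaction they were -0.46 to 0.62 for Chac1, -0.97 to 1.31 for Atf5, -0.46 to 4.35 for Fgf21, and -2.98 to 1.01 for Phgdh. For Ctnnb1 against other tumors they were -1.18 to 0.019 for Atf5, -2.37 to 1.19 for Fgf21, and -0.022 to 0.82 for Pck2. For Egfr or Hras against neither they were -0.32 to 2.22 for Asns, -0.24 to 2.78 for Phgdh, -0.19 to 1.82 for Nupr1, and -0.51 to 0.038 for Pck2. None of these values was past the threshold.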
